A study of Arabidopsis thaliana with 4 samples.

Results

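The core abscisic acid (ABA) signalling genes of *Arabidopsis* were followed here through their H3K4me3-associated chromatin loops. They are 10 of 27444 protein-coding genes: the kinase genes OST1 (AT4G33950), SNRK2.2 (AT3G50500) and SNRK2.3 (AT5G66880), the phosphatase genes ABI1 (AT4G26080), ABI2 (AT5G57050), HAB1 (AT1G72770) and PP2CA (AT3G11410), and the bZIP factor genes ABF2 (AT1G45249), ABF3 (AT4G34000) and ABF4 (AT3G19290). A loop was taken as one of theirs when either of its anchors overlapped the region from 1 kb upstream of the transcription start site (TSS) to the transcription end of the gene. By this rule 9 of the 10 genes had a loop, each through 1 anchor, and the 9 anchors are part of 15694 anchors in all. Their loops number 49 of 36723 loops in Col-0 and 33 of 32312 loops in *myc2*. ABF2 had no listed anchor in either genotype.

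ABA is the plant hormone of drought and seed dormancy. When ABA binds the PYR/PYL receptors, these hold clade A type 2C protein phosphatases such as ABI1, ABI2, HAB1 and PP2CA, which otherwise keep SnRK2 kinases inactive. The freed kinases phosphorylate the ABF (AREB) bZIP factors, which bind the ABA-responsive element of their target promoters, and OST1 is the kinase known for closing stomata in guard cells. MYC2, a bHLH factor of jasmonate signalling that also takes part in ABA responses, binds the G-box.

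Seedlings of Col-0, the wild type, and of the mutant *myc2*, whose allele the labels do not name, were 2 weeks old when their shoots were taken, and had grown at 22 °C with 16 h light and 8 h dark. Their chromatin was fixed with 1.5 mM EGS for 30 min and 1% formaldehyde for 10 min, and H3K4me3 ChIA-PET joined DNA ends that lay near each other in chromatin carrying this mark of active promoters. Each junction was read as a paired-end tag (PET), and per the methods the 2 biological replicates of each genotype were combined before loops were called. The list of each genotype is deposited with its first replicate and is taken here as the combined one. Each genotype thus has 1 list of loops, with no replicate check of any difference, and every interval given is a 95% interval that covers counting error only.

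Shoot identity and the mutant were checked on the anchors. Of 5 shoot marker genes 4 had an anchor (all but LHCB2.1), and of 5 root marker genes 0 had one. The share over all protein-coding genes was 64.8%, so the shoot count alone is a weak check. The tags of the MYC2 anchor, which a neighbouring gene shares, numbered 3562 in wild type against 1423 in the mutant, a ratio of 0.399, below which lay 0.0138% of 14505 anchors. PET counts are not scaled for depth. The Col-0 list starts at 10 PETs per loop and the *myc2* list at 5 PETs, and a loop is called missing, or without a counterpart, when no loop of the other list overlaps both of its anchors by at least 1 bp. A loop missing in *myc2* may thus hold up to 4 PETs there. Shoots were assayed as a whole, so a loop held in fewer cells and a loop that is weaker in each cell cannot be told apart.

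The promoters of 4 of the genes are shown because they span the range of ACGTG matches in this set, from none at OST1 to the most at PP2CA, and include both genes with a G-box. Each is the 300 bases before the TSS in RefSeq TAIR10.1, written 5′ to 3′ on the strand of the gene, and capitals mark ACGTG on either strand, so also CACGT and the whole G-box CACGTG.
OST1 promoter, chr4:16271445-16271744, plus strand: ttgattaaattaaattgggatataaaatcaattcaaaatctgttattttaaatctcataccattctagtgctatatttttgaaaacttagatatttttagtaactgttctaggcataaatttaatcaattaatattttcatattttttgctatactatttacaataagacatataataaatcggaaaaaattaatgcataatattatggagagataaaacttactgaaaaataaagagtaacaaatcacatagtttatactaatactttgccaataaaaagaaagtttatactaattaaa
SNRK2.3 promoter, chr5:26710002-26710301, plus strand: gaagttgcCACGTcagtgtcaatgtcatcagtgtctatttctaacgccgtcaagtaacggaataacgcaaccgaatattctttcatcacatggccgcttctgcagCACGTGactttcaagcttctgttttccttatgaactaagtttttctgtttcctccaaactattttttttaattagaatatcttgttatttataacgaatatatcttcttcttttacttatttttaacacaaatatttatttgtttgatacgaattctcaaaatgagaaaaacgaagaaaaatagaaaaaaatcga
PP2CA promoter, chr3:3585851-3586150, minus strand: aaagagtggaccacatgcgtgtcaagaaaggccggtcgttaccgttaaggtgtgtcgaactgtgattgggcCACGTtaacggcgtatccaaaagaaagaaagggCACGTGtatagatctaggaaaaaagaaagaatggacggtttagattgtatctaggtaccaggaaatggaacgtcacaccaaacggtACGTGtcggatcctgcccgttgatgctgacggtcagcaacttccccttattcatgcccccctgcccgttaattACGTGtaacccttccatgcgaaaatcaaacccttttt
ABF3 promoter, chr4:16295034-16295333, plus strand: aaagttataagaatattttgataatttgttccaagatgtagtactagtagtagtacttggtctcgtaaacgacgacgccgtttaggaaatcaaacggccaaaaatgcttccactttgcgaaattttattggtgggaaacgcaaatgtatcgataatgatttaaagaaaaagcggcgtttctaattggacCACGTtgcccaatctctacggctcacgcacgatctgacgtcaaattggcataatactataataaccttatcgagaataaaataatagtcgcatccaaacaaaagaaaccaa
The G-box CACGTG, searched on both strands, was held by 7.09% of 27443 promoters of this length and by 2 of the 10 genes, SNRK2.3 and PP2CA. The core of the ABA-responsive element, ACGTG, which lies within every G-box, was held by 25.6% of all promoters and by 6 of the 10 genes. PP2CA had 5 matches to this core, SNRK2.3 had 3 matches, and ABI1, HAB1, ABF3 and ABF4 had 1 match each. Matches were counted on each strand, so the 1 G-box of PP2CA and the 1 G-box of SNRK2.3 each count as 2 matches. OST1, SNRK2.2, ABI2 and ABF2 had no match in these windows. A match describes the letters only and is not a measured binding site.

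OST1 kept 2 of its 9 connecting genes in *myc2*, and with the lists as deposited no other of the 10 genes differed by more than 2. Connecting genes are the distinct genes that loops join to a gene, each anchor being given to the gene whose region covers at least 50% of it, and a gene with at least 5 of them is a hub. The numbers in the wild type and the mutant were 9 and 2 for OST1, 5 and 3 for SNRK2.2 and 5 and 4 for SNRK2.3. Among the phosphatase genes they were 8 and 7 for ABI1, 4 and 3 for ABI2, 5 and 4 for HAB1 and 4 and 3 for PP2CA. Among the bZIP factor genes they were 7 and 5 for ABF3 and 1 and 2 for ABF4, while ABF2 had none. Thus the mutant list gave 8 of 9 genes fewer connecting genes than the wild-type list did, a direction shared by 50.8% of 14978 genes with any connecting gene, and 1 gene (ABF4) had more, as did 24.1%. With Col-0 loops of at least 12 PETs only, 3 of the genes had fewer and 3 had more. A difference of at least 3 fewer was seen at 1 of 9 genes (OST1), against 9.97% of all such genes, and a difference of at least 3 more at 0 of 9, against 2.22%. The median difference was -1 for the 9 genes and -1 for all such genes. Other genes with 5 connecting genes in Col-0 had a median of 4 in *myc2*, and those with 8, 7 and 4 had medians of 7, 6 and 4. SNRK2.3, HAB1 and ABI1 stood at these medians, while SNRK2.2, ABI2, PP2CA and ABF3 stood below them. As low or lower were 27.2% of the others for SNRK2.2, 49.6% for ABI2 and PP2CA and 40.2% for ABF3. In Col-0 6 of the genes were hubs (OST1, SNRK2.2, SNRK2.3, ABI1, HAB1 and ABF3), and in *myc2* 2 were (ABI1 and ABF3). OST1 was an entirely disassembled hub, a class for the loss of 3 or more connecting genes that make up a share of at least 0.7, and the other 5 hubs counted as stable, since each lost fewer than 3. These classes rest on the unequal minimums of the lists. With at least 10 PETs in both lists SNRK2.2 had 5 connecting genes in Col-0 and none in *myc2* and ABF3 had 7 and 1, which puts both in the class of OST1. In that setting SNRK2.3 had 5 and 2, ABI1 had 8 and 4 and ABI2 had 4 and 1. Thus 6 of the 9 genes had at least 3 fewer, as did 63.8% of all genes.

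**Figure D1:**
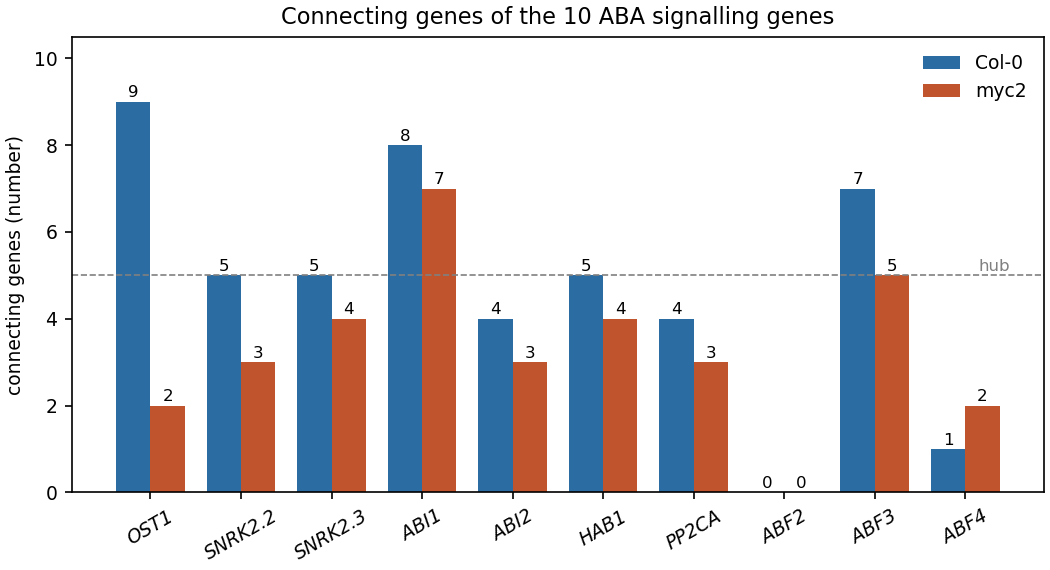
Number of connecting genes (vertical axis) of the 10 ABA signalling genes in Col-0 (blue) and *myc2* (red), with the hub threshold of 5 as a dashed line. With the lists as deposited OST1 goes from 9 to 2, the other genes differ by at most 2, and ABF2 stands at 0 in both lists.

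OST1, also known as SnRK2.6, lies on chromosome 4 from 16271745 to 16274825 on the plus strand (RefSeq TAIR10.1). Its anchor of 1029 bp begins 148 bp after the TSS and lies within the gene. Across the set anchors were 753 to 1953 bp wide and began between 175 bp before the TSS, at PP2CA, and 244 bp after it, at SNRK2.3. In Col-0 the anchor formed 9 loops with 139 PETs (117 to 164), and in *myc2* it formed 2 loops with 23 PETs (14.6 to 34.5). The loops in both lists were those to AT4G33945, an ARM repeat gene, and to AT4G33940, a RING/U-box gene, its nearest partners upstream. The loop to AT4G33945 held 21 PETs in Col-0 against 13 PETs in *myc2*, and the loop to AT4G33940 held 20 and 10 PETs. Together these 2 loops had a PET ratio of 0.561 (0.321 to 0.957), an interval that includes the ratio of all shared loops (0.432). The lower loop number of OST1 is by definition made up of loops that the *myc2* list lacks. The 2 shared loops are those that reached the minimum of that list. Their ratio thus does not show whether the PETs of OST1 differed as a whole. If each of the 7 missing loops held 4 PETs, OST1 would have had 51 PETs in *myc2* and a ratio of 0.367 over all its loops, and if they held none the ratio was 0.165. Over all Col-0 loops these 2 bounds were 0.403 and 0.340. With missing loops at 4 PETs, the ratio was lower at SNRK2.2 (0.286), ABF3 (0.336) and ABI2 (0.338) than at OST1. It was higher at the other genes with loops. With missing loops at no PETs, the ratio of OST1 was the lowest of the set.

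The 7 loops of OST1 without a counterpart reached in both directions. Upstream, loops were missing to AT4G33905 (12 PETs in Col-0, Mpv17/PMP22 family), AT4G33910 (11 PETs, an oxygenase family gene), AT4G33920 (12 PETs, a protein phosphatase 2C family gene) and SSN2 (11 PETs, a SWIM zinc finger gene). Downstream, all 3 loops were missing, those to AT4G33960 (13 PETs), AT4G33970 (22 PETs, a leucine-rich repeat family gene) and AT4G33980 (17 PETs). The longest OST1 loop spanned 17.1 kb in Col-0 against 6.03 kb in *myc2*. Of the 7 missing loops, 5 had 11 to 13 PETs. Among all Col-0 loops with 11 PETs 61.4% had no counterpart, with 12 PETs 55.3% and with 13 PETs 50.1%. The loops to AT4G33980 and AT4G33970 were stronger, and the latter was the strongest of OST1 in Col-0. Among all Col-0 loops with 17 PETs 28.9% had no counterpart. Of 935 Col-0 loops with 22 PETs, 13.05% had no counterpart in *myc2*. The anchors at the far ends were still listed in *myc2*, where AT4G33970 had 5 connecting genes against 7 in Col-0 and AT4G33980 had 5 against 10.

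Within 20 kb of OST1 lay 10 anchors, of which it joined 9 in Col-0 against 2 in *myc2*. Its neighbours were still joined to each other, but they too had loops missing. Among the 9 partner anchors of OST1 there were 17 loops with 326 PETs in Col-0 and 13 loops with 115 PETs in *myc2*. Of the 17, 6 (35.3%) had no counterpart, and 2 of the 13 were in *myc2* alone. From these anchors to other anchors outside the group there were 12 loops in Col-0 against 8 in *myc2*. Of the 12, 8 (66.7%) were missing, and 4 loops were in *myc2* alone. The share missing over all Col-0 loops was 32.2%. OST1 was also set beside genes with the same start. For 506 other genes with 9 in Col-0, the median in *myc2* was 8, the middle range was 6 to 9 and the whole range was 3 to 15, so that 0 of them were at or below the 2 of OST1. OST1 was chosen with this loss already known, so the place in this order is a description. Genes with the most similar numbers were AT1G01800 (9 and 3), SBTI1.1 (8 and 2), LOS2 (8 and 2), Cand2 (10 and 2) and CYP72A11 (8 and 2), each at a summed difference of 1 from OST1 over the 2 lists, with 7 further genes at the same distance.

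SNRK2.2 and SNRK2.3, the kinases that act with OST1 in seeds and seedlings, each kept 3 of 5 connecting genes with the lists as deposited. SNRK2.2 (chromosome 3, 18741444 to 18744174, minus strand) formed 5 loops with 98 PETs (79.6 to 119) in Col-0 and 3 loops with 20 PETs (12.2 to 30.9) in *myc2*. Its 2 missing loops were its strongest ones and led to HR4 (26 PETs in Col-0) and HR3 (20 PETs), homologues of the mildew resistance gene RPW8 that lie downstream of it. Of 638 Col-0 loops with 26 PETs 6.90% had no counterpart, and of 1149 loops with 20 PETs 17.0%. The loops that stayed, to AT3G50420 (16 and 7 PETs), AT3G50520 (19 and 5 PETs) and CRK (17 and 8 PETs), a CDPK-related kinase gene, had a joint ratio of 0.385 (0.217 to 0.655). The longest of them, to AT3G50420 at 30.1 kb, was in both lists while the shorter loops to HR3 (14.2 kb) and HR4 (9.95 kb) were in Col-0 alone.

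SNRK2.3 (chromosome 5, 26710302 to 26712971, plus strand) formed 5 loops with 103 PETs (84.1 to 125) in Col-0 and 4 loops with 39 PETs (27.7 to 53.3) in *myc2*. Its strongest loops led to 2 disease resistance genes of the CC-NBS-LRR class and were in both lists. The loop to AT5G66910 held 30 PETs in Col-0 against 12 PETs in *myc2*, and the loop to AT5G66900 held 27 and 15 PETs. The loop to AT5G66860 held 25 and 7 PETs, and the 3 shared loops together had a ratio of 0.415 (0.269 to 0.626). Missing were the loops to sks17 (11 PETs in Col-0) and AT5G66950 (10 PETs), both near the minimum of the Col-0 list. The sks17 anchor itself was in no *myc2* loop, the sole partner anchor of the 10 genes' Col-0 loops for which this held. A loop of 5 PETs to AT5G66960 was listed in *myc2* alone. With Col-0 loops of at least 12 PETs only, SNRK2.3 had 3 connecting genes in Col-0 against 4 in *myc2*, which turns its direction.

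The shares of loops missing had overlapping intervals among the 3 roles. Of the 22 Col-0 loops of the phosphatase genes 7 had no counterpart (31.8%, Wilson interval 16.4 to 52.7%), against 11 of 19 for the kinase genes (57.9%, 36.3 to 76.9%), of which OST1 gave 7 (4 of 10 without it), and 3 of 8 for the bZIP factor genes (37.5%, 13.7 to 69.4%). The share over all Col-0 loops was 32.2%, which lies below the interval of the kinase genes. This rests on OST1, since without it the kinase interval was 16.8 to 68.7%. Overlap of the 3 intervals is not a test, and loops of 1 gene share its anchor and are not replicates.

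ABI1, the phosphatase whose dominant mutation made plants ABA-insensitive, had the most shared loops of the set. From its place on chromosome 4 (13219915 to 13222376, minus strand) it formed 9 loops with 197 PETs (170 to 227) in Col-0 and 7 loops with 99 PETs (80.5 to 121) in *myc2*. Its strongest loop in both lists joined it to the next gene upstream, RPS2, a disease resistance gene of the NB-ARC class, with 35 and 28 PETs. The loop to CK1, a casein kinase gene, held 28 and 24 PETs and the loop to MEK1, a MAP kinase kinase gene, 34 and 10 PETs. CK1 and MEK1 were singled out after their values were seen. The ratios of the RPS2 and CK1 loops, 0.80 (0.469 to 1.35) and 0.857 (0.476 to 1.53), were at or above 0.8, as for 0.997% of 12738 shared loops of at least 20 PETs in Col-0. The MEK1 loop, at 0.294 (0.130 to 0.609), was under 0.3, as for 22.8% of these loops. All 7 shared loops of ABI1 had a joint ratio of 0.596 (0.460 to 0.770), and its lower bound lies above the 0.432 of all shared loops, which held for 1 of the 9 genes. Missing in *myc2* were a second loop to RPS2, through an anchor away from that gene's promoter (18 PETs in Col-0), and the loop to AT4G26130 (13 PETs).

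ABI2, the closest relative of ABI1 in this set (chromosome 5, 23087122 to 23089631, plus strand), formed 4 loops with 77 PETs (60.8 to 96.2) in Col-0 and 3 loops with 24 PETs (15.4 to 35.7) in *myc2*. The strongest, to AT5G57070, held 35 and 13 PETs. The loop to AT5G57080 held 17 and 5 PETs, and the 2 shared loops had a ratio of 0.346 (0.191 to 0.602). Missing were the loops to AT5G57035, a U-box kinase family gene (15 PETs in Col-0), and to AT5G57100 (10 PETs). The loop listed in *myc2* alone had 6 PETs and spanned 2.26 kb, to an anchor of the next gene, AT5G57060, which the ABI2 anchor also overlaps.

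HAB1 (chromosome 1, 27389948 to 27393327, plus strand) formed 5 loops with 133 PETs (111 to 158) in Col-0 and 4 loops with 59 PETs (44.9 to 76.1) in *myc2*. Its strongest loop in both lists joined the upstream gene TIM23-2, which encodes a subunit of the mitochondrial import channel, with 49 and 24 PETs. The 3 shared loops had a ratio of 0.477 (0.336 to 0.670), with 0.432 inside the interval. The 2 missing loops, to AT1G72820 and NF-YA3, had 11 and 13 PETs in Col-0 and were the longest of the gene at 12.8 and 16.9 kb. A loop of 7 PETs to AT1G72800 was in the *myc2* list alone, and the anchor it reaches was in no Col-0 loop.

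PP2CA was the member with the highest PET ratio over several shared loops. It lies on chromosome 3 from 3583782 to 3585850 on the minus strand. It formed 4 loops with 64 PETs (49.3 to 81.7) in Col-0 and 3 loops with 34 PETs (23.5 to 47.5) in *myc2*, and the shared loops had a ratio of 0.68 (0.426 to 1.07). The loop to AT3G11420 held 16 PETs in Col-0 against 19 PETs in *myc2*, a ratio of 1.19 (0.578 to 2.47). It was the 1 shared loop of the 28 with at least as many PETs in *myc2* as in Col-0, a pattern of 1.04% of all shared loops. The loop to EIF3G1, a translation initiation factor gene and the strongest partner in Col-0, went from 20 to 10 PETs, and the loop to PRA1.A3 from 14 to 5 PETs. The loop to AT3G11450, at 23.1 kb the longest, had 14 PETs in Col-0 and was missing in *myc2*.

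**Figure D2:**
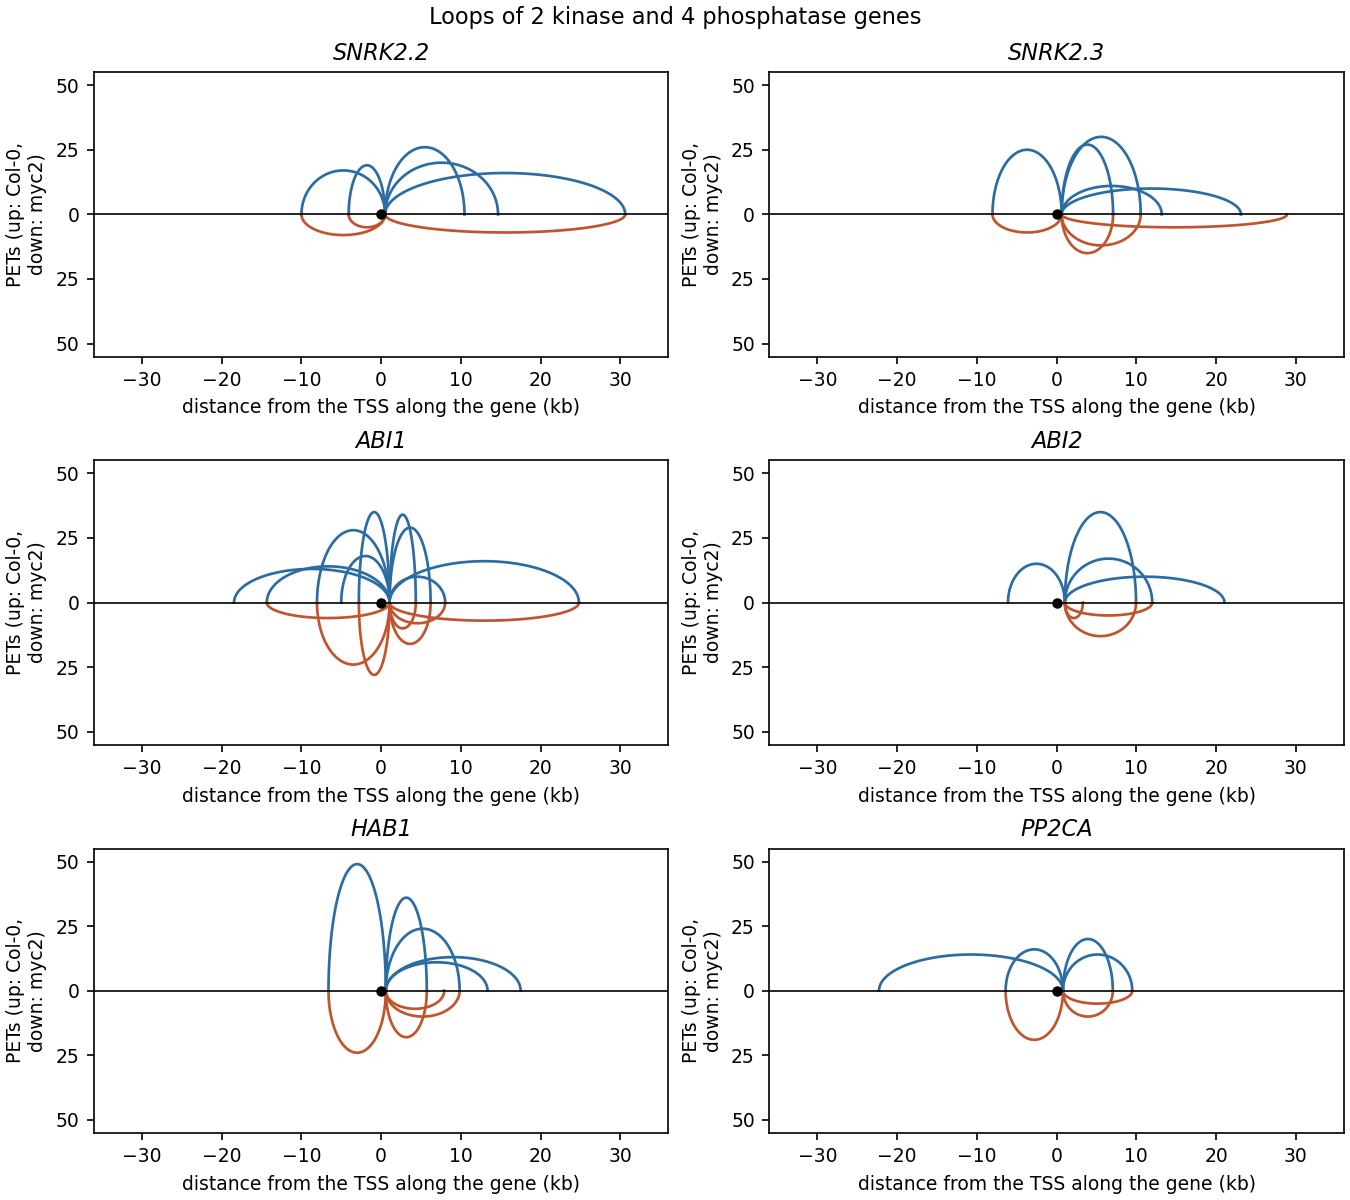
Loops of SNRK2.2, SNRK2.3 and the 4 phosphatase genes as arcs from the anchor of the gene to that of the partner, with distance from the TSS along the gene (kb) on the horizontal axis and PETs as arc height, upward (blue) for Col-0 and downward (red) for *myc2*. Arcs without a mirror image are loops of 1 list, such as the 2 downstream loops of SNRK2.2 with 26 and 20 PETs, and the PP2CA loop of 16 PETs is deeper in *myc2* at 19 PETs.

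ABF3 stands 23.6 kb downstream of OST1 by the distance of their TSSs, from 16295334 to 16298285 on the plus strand of chromosome 4, and its product is a bZIP factor that SnRK2 kinases phosphorylate. Its anchor formed 7 loops with 223 PETs (195 to 254) in Col-0 and 5 loops with 68 PETs (52.8 to 86.2) in *myc2*. More than any other loop of the set, that to DJ1C, its nearest partner downstream, carried PETs: 128 in Col-0 against 43 in *myc2*, a ratio of 0.336 (0.232 to 0.478). In the whole Col-0 list 8 loops were stronger, and in *myc2* 63 loops had at least 43 PETs. The anchor given to DJ1C also overlaps the region of MCCB. The loop to MBR2, a RING finger gene whose product is known to bind the Mediator subunit MED25, held 32 and 7 PETs, and the loop to EMB2758 held 11 and 6 PETs. The 4 shared loops of ABF3 had a ratio of 0.348 (0.257 to 0.466), with 0.432 inside the interval.

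ABF3 and OST1 were not joined directly in either list, but in Col-0 they shared 2 partners, AT4G33970 and AT4G33980, which lie between them. In *myc2* they shared 0 partners, since both OST1 loops to these genes were missing. ABF3 kept the loop to AT4G33970, with 10 PETs in Col-0 against 7 PETs in *myc2*, while its loop to AT4G33980 (14 PETs in Col-0) was missing. Also missing were the ABF3 loops to AT4G33985 (11 PETs) and to CER9, a RING/U-box gene of wax metabolism at 34.5 kb (17 PETs). A loop of 5 PETs to CCoAOMT1, a methyltransferase gene of lignin synthesis, was in *myc2* alone. Among the 7 Col-0 partner anchors of ABF3 there were 11 loops with 247 PETs in Col-0 and 9 loops with 84 PETs in *myc2*. Of the 11, 4 (36.4%) were missing, against 32.2% of all Col-0 loops. With Col-0 loops of at least 12 PETs only, ABF3 had 4 connecting genes in Col-0 against 5 in *myc2*, which turns its direction, and OST1 had 7 and 2.

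**Figure D3:**
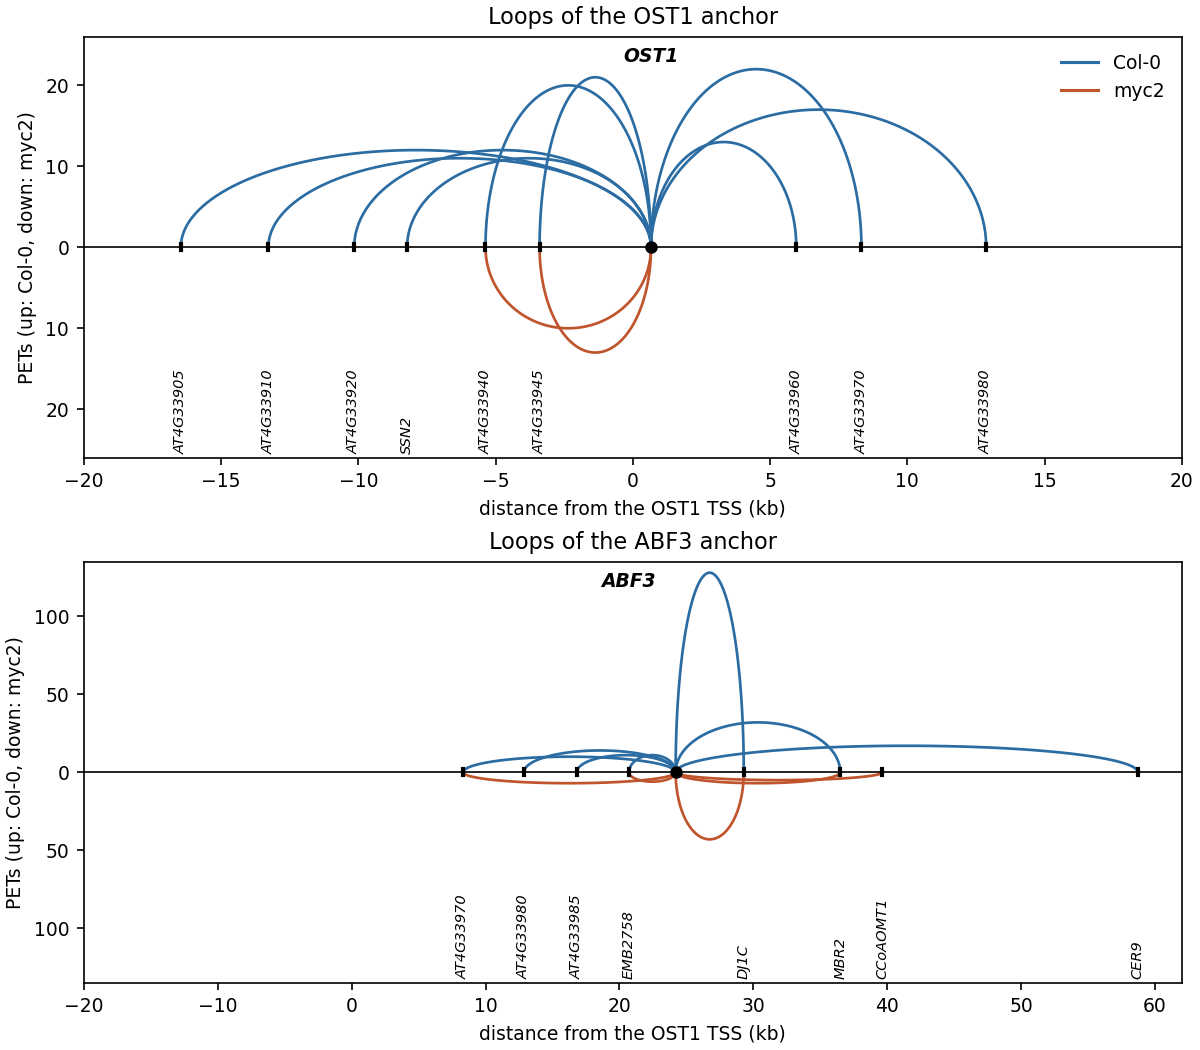
Loops of OST1 (top) and ABF3 (bottom) drawn as arcs against distance from the OST1 TSS (kb, on different horizontal and vertical scales), with PETs as arc height, upward for Col-0 (blue) and downward for *myc2* (red), and partner genes named at the bottom. OST1 has 9 arcs upward and 2 downward, both to its nearest partners on the left, and the tallest arc of ABF3 is that to DJ1C with 128 and 43 PETs.

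Of the 9 partner genes of OST1 and the 8 partner genes of ABF3, 3 held a G-box in the 300 bases before their TSS. The sites are shown with capitals for the G-box, 5′ to 3′ on the strand of the gene (RefSeq TAIR10.1).
AT4G33945, chr4:16267605-16267634, plus strand: aattgtaacagaCACGTGaatctattaagt
AT4G33970, chr4:16282192-16282221, minus strand: tatcttgcagcaCACGTGaaatagtgagac
EMB2758, chr4:16293153-16293182, minus strand: cgcaatccaaatCACGTGgatcgaaggttt
The loop of OST1 to AT4G33945 and the loops of ABF3 to AT4G33970 and EMB2758 were in both lists, while the loop of OST1 to AT4G33970 was missing in *myc2*. All 3 sites lie outside the looped anchors of these genes, and the anchor at AT4G33970 overlaps no promoter. Over the 51 partner genes of the set these 3 were the sole ones with a G-box, against 7.09% of all promoters. The core ACGTG was held by 13 of 51 partners, against 25.6% of all promoters. It was held by 4 of 20 partners reached by a missing loop and by 10 of 28 partners reached by a shared loop, and a partner may be among both.

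ABF4 and ABF2 stood apart from ABF3 in having few loops or none. ABF4 (chromosome 3, 6687042 to 6690123, plus strand) formed 1 loop with 14 PETs in Col-0, to FUT11, a fucosyltransferase gene, and in *myc2* the same loop had 9 PETs beside a second of 5 PETs to AT3G19300, a kinase family gene. Its ratio over the shared loop was 0.643 (0.245 to 1.59), too wide to set against 0.432. When loops of at least 10 PETs were taken in both lists, ABF4 had 1 connecting gene in Col-0 against 0 in *myc2*, which turns its direction. ABF2 (chromosome 1, 17165125 to 17167924, minus strand) lay between the anchors of THO5, a THO complex gene ending 11.4 kb away, and of AT1G45230, starting 1.58 kb from the edge of its region. These anchors formed a loop with each other across ABF2, with 11 PETs in Col-0 against 12 PETs in *myc2*, so that it too was among the 1.04% of shared loops with no fewer PETs in *myc2*. Across ABF2 the Col-0 list held this loop alone and the *myc2* list held 18 loops, 16 of which spanned over 5 Mb, and none of these ends at ABF2. Loops of such length were not counted over the whole lists, and the *myc2* list starts at fewer PETs. The larger number is thus not read as a gain at ABF2. Of all protein-coding genes 64.8% had a listed anchor in their region, as did 9 of the 10 ABA genes.

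Over all 9 genes, 28 of the 49 Col-0 loops had a counterpart in *myc2* and 21 did not. This is a share of 42.9% (Wilson interval 30.0 to 56.7%), which includes the 32.2% of all Col-0 loops. Without OST1 it was 14 of 40, or 35.0% (22.1 to 50.5%). Of the 33 *myc2* loops, 5 had no counterpart in Col-0 (15.2%, 6.65 to 30.9%), against 23% of all *myc2* loops. These 5 loops had 5 to 7 PETs, where the median of all *myc2* loops was 7 PETs. As PETs are not scaled for depth, these counts cannot be set directly against the minimum of the Col-0 list.

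Missing loops were the weaker and longer ones. They had a median of 13 PETs and 12.5 kb, against 20.5 PETs and 7.18 kb for the shared loops. Of 20 loops with 10 to 14 PETs in Col-0, 14 were missing: 7 of 10 with 10 to 11 PETs (65.1% among all Col-0 loops) and 7 of 10 with 12 to 14 PETs (49.5%). From 15 to 19 PETs 4 of 10 were missing (29.5%), from 20 to 24 PETs 2 of 6 (13.6%) and from 25 to 29 PETs 1 of 5 (5.56%). The 3 missing loops of at least 20 PETs were those of OST1 to AT4G33970 and of SNRK2.2 to HR3 and HR4, while over the whole list 6.41% of such loops were missing. All 8 loops of at least 30 PETs were in both lists, as were nearly all such loops of Col-0 (1.57% missing from 30 to 39 PETs and 0.114% from 40 PETs). Of 28 loops shorter than 10 kb 7 were missing (19.5% among all loops), and of 21 longer loops 14 were (42.1%). Loops were missing on both sides of the genes, 10 of 23 upstream and 11 of 26 downstream.

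Shared loops of the ABA genes had a PET ratio of 0.471 (0.414 to 0.536), from 747 PETs in Col-0 and 352 PETs in the mutant. For the whole set of 24896 shared loops it was 0.432 (0.430 to 0.434), inside that interval. The ratio was 0.538 (0.452 to 0.640) for the phosphatase genes, 0.44 (0.332 to 0.578) for the kinase genes and 0.369 (0.278 to 0.486) for the bZIP factor genes. The interval of the phosphatase genes lies above 0.432, which rests on ABI1: without it the ratio was 0.493 (0.386 to 0.626). If absent loops were taken as 0 PETs, the ratio over all Col-0 loops of the 9 genes was 0.336, against 0.340 over the whole list. Of the 49 Col-0 loops, 46 had a partner anchor that overlapped the promoter of any gene. The share over all loops was not counted. Since H3K4me3 marks active promoters, this number is not read as particular to these genes.

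**Figure D4:**
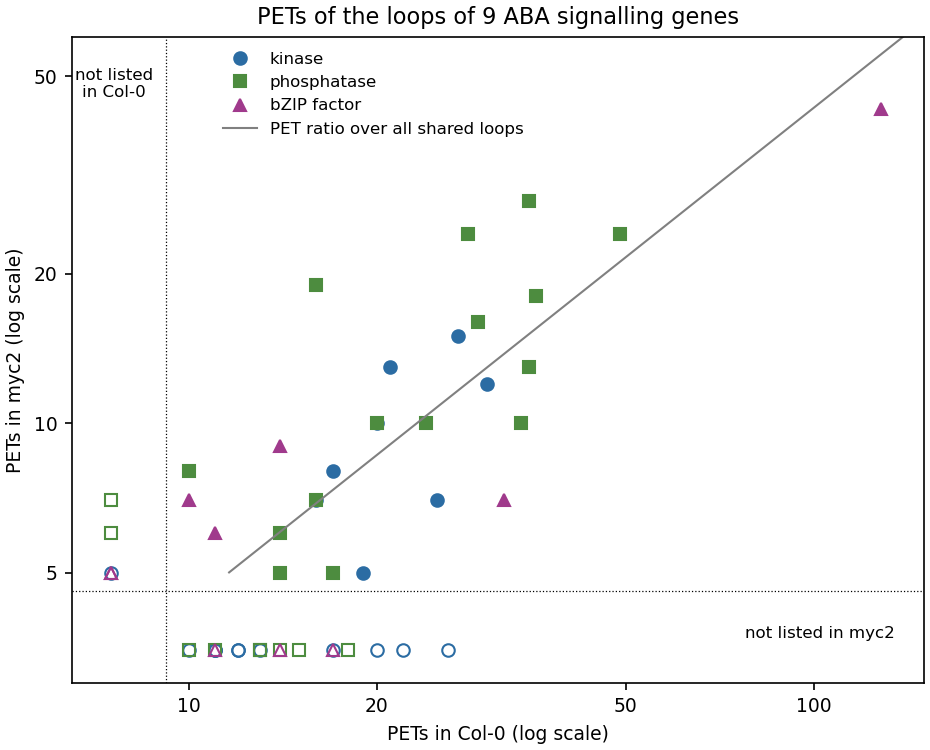
PETs of each loop of the 9 genes in Col-0 (horizontal, log scale) and in *myc2* (vertical, log scale), by role of the gene, where some symbols coincide. Filled symbols are the 28 shared loops around the line of the overall ratio of 0.432, and open symbols at the edges are the 21 loops not listed in *myc2* and the 5 not listed in Col-0.

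The H3K4me3 tags in the anchors of the ABA genes followed the general level, except at ABI2 and ABF4. Tags count all reads in an anchor, whether or not they lie in a loop, and over the 14505 anchors holding 300 or more Col-0 tags the median ratio of *myc2* to Col-0 was 0.775, with the 5th percentile at 0.639 and the 95th at 0.903. The OST1 anchor held 1310 tags in Col-0 against 927 tags in *myc2*, a ratio of 0.708 (0.650 to 0.770), and 20.1% of anchors lay lower. The OST1 anchor thus lay inside the range between those percentiles. The ABF4 anchor held 921 and 519 tags, a ratio of 0.564 (0.505 to 0.628), below which lay 0.834% of anchors. The ABI2 anchor held 1641 and 930 tags, a ratio of 0.567 (0.522 to 0.615), below which lay 0.896% of anchors, and it also overlaps AT5G57060. ABI2 had 4 loops in Col-0 against 3 in *myc2*, and ABF4 had 1 against 2. The other kinase anchors held 1204 and 993 tags at SNRK2.2 (ratio 0.825) and 1228 and 959 tags at SNRK2.3 (0.781). The ABI1 anchor, the richest, held 3296 and 2529 tags (0.767). HAB1 held 2259 and 1930 tags, the highest ratio of the set at 0.854 (0.804 to 0.908), and PP2CA 2178 and 1617 tags (0.742). ABF3 held 2119 and 1667 tags (0.787). The far ends of missing loops had a median tag ratio of 0.782 and those of shared loops 0.797.

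**Figure D5:**
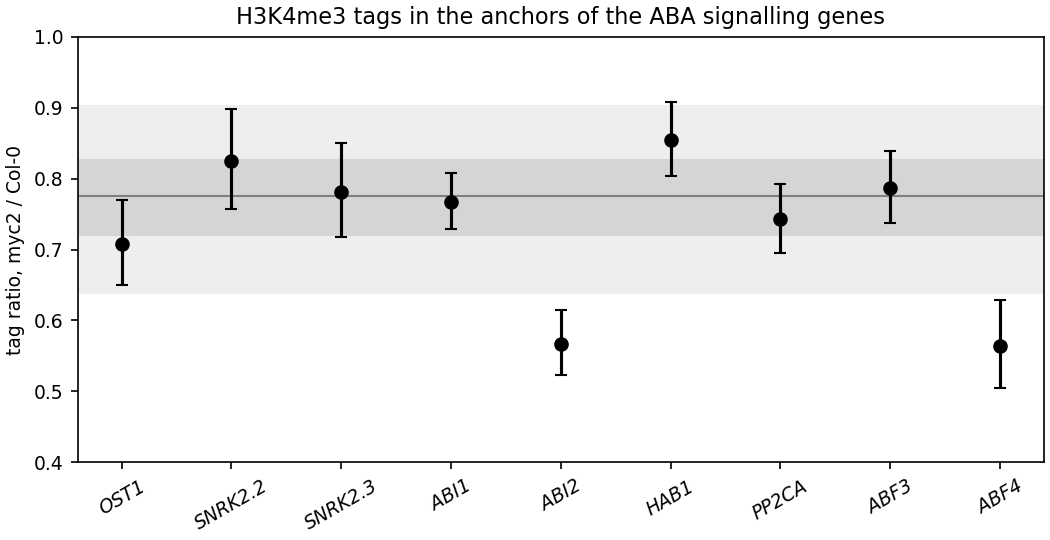
Ratio of H3K4me3 tags in *myc2* to those in Col-0 for the anchor of each gene, with 95% counting intervals as bars. The line is the median of 14505 anchors (0.775), the darker band their middle 50% and the lighter band the range from their 5th to their 95th percentile, and ABI2 (0.567) and ABF4 (0.564) lie below both bands.

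Of 44 other genes of the ABA pathway, 31 had an anchor, where the share over all genes was 64.8%, and 27 had connecting genes. Among these 27, 15 had fewer connecting genes in *myc2* (50.8% of all genes), 5 had more (24.1%) and 7 had as many, with a median difference of -1, as over all genes. Only HAI2, PYL6, HAB2 and ABA2 had at least 3 fewer (4 of 27, against 9.97% of all genes), and 0 had at least 3 more (2.22%). HAI2, a further clade A phosphatase gene, had 9 connecting genes in Col-0 against 4 in *myc2*. HAB2, the closest relative of HAB1, had 6 and 3. The receptor gene PYL6 had 5 and 1, and ABA2, which encodes a dehydrogenase of ABA synthesis, had 7 and 4. No loop joined any of the 44 genes to the 10 core genes in either list.

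By role, 10 of 14 receptor genes had an anchor (all but PYL10 to PYL13), and of 9 with connecting genes 5 had fewer in *myc2* and 1 had more (PYL8, with 3 and 4). Of 7 other SnRK2 genes 5 had an anchor, and 4 had connecting genes. Among these 4, SNRK2.4 had 4 in Col-0 against 2 in *myc2*, SNRK2.8 had 7 against 9, and 2 had as many. Of 5 other phosphatase genes 3 had an anchor, with HAI1 at 2 and 3. Both other bZIP factor genes with connecting genes had fewer, ABF1 with 4 and 3 and AREB3 with 8 and 6, while ABI5, a factor of seeds, had no anchor. Of 9 genes of ABA synthesis and breakdown 7 had an anchor, and of these 4 had fewer connecting genes in *myc2*, 2 had more and 1 had as many. NCED3, which encodes the rate-limiting dioxygenase, had 5 and 3, while AAO3 had 1 and 2 and CYP707A3 had 6 and 8. Of 4 target genes 3 had an anchor, RD29A with 6 and 5 connecting genes and RAB18 with 3 and 3. SLAC1, the guard cell anion channel gene whose product OST1 phosphorylates, had no anchor in either list.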

How the data were processed

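The deposited files are 1 loop list per genotype. The authors used ChIA-PET Tool V3 to filter linkers, map reads to TAIR10, remove redundant PETs and call clusters between merged H3K4me3 peaks of both genotypes, after combining replicates. Their limits were an FDR of 0.05 and a PET count chosen by depth. The aligner is not given in the sources used here. Deposited values are counts of PETs per loop and counts of tags per anchor, unscaled, beside which stand each loop's p-value, its FDR and the −log10 values of these. RNA-seq and ChIP-seq data were not used here.

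A Col-0 loop was missing when no *myc2* loop overlapped both of its anchors by at least 1 bp, and the matching was tested on simulated data. Genes came from RefSeq TAIR10.1. An anchor with several candidate genes went to that with the largest overlap. Hubs were entirely disassembled when they lost 3 or more connecting genes that made up at least 0.7 of those in Col-0. Shares have Wilson intervals, PET counts exact Poisson intervals and ratios exact binomial intervals. No p-value was given for any difference between the genotypes, as each has 1 list.

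The members and the gene lists were chosen with earlier results of these data known. Named partners are those of each gene's strongest loop in each list, of loops in 1 list with at least 15 PETs in Col-0 or 8 PETs in *myc2*, and all partners of OST1 and ABF3. Pathway genes are named when they differ by at least 3 or share a loop with a member, and up to 5 genes when they are most like OST1. Other names were chosen after their values were seen. Alternatives were other overlaps, PET minimums, an FDR under 0.001, other ways to assign genes to anchors and a tag minimum of 1000. Leaving out OST1 and setting absent loops to 0 or 4 PETs were chosen after seeing the data. The software was Python 3.11.15 with scipy 1.17.1, pandas 2.3.3, numpy 2.4.6 and matplotlib 3.10.9.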

Additional observations from a re-analysis of the deposited data

How the results depend on the processing

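The share of the genes' Col-0 loops without a counterpart stayed at 42.9% with anchors overlapping by 50% of each, with an FDR under 0.001 (which no listed loop exceeds), with promoter overlap, with 50% of the anchor covered and with the largest overlap. These settings could hardly move it, as both lists were called on the same merged peaks and each gene had 1 anchor. The share was 69.4% (34 of 49) with at least 10 PETs in both lists, when 72.3% of all Col-0 loops were missing. It was 35.9% (24.1% of all) with at least 12 PETs in Col-0 and 35.0% without OST1. The PET ratio was 0.336 with absent loops as 0 PETs (0.340 over the list), 0.416 with them at 4 PETs (0.403) and 0.454 over shared loops of at least 20 PETs in Col-0 (0.399). Genes with fewer connecting genes numbered 8 of 9, except with at least 10 PETs in both lists (9, and 97.4% of all genes) and with at least 12 PETs in Col-0 (3, with 3 having more, and 27.6% of all genes). Genes with at least 3 fewer numbered 1, but 2 (OST1 and ABF3) with every covering gene or every promoter gene counted (15.02% and 16.4% of all genes) and 6 with at least 10 PETs in both lists (63.8%). The difference at OST1 was -7, or -6 by promoter and -5 with at least 12 PETs in Col-0. The median tag ratio was 0.767, or 0.774 for anchors of at least 1000 tags.

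No paired analysis was possible because the replicates were combined before loops were called, which leaves 1 list per genotype. No replicate was left out for the same reason. Loops of few PETs limit precision, as 20 of the 49 Col-0 loops had 10 to 14 PETs.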
